A study of Homo sapiens with 42 samples.

Results

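The BCL2 family genes were followed in K562 cells, an established line from chronic myeloid leukaemia whose proliferation is driven by the BCR-ABL1 tyrosine kinase. The 10 members were MCL1, BCL2L1, BCL2, BCL2L11, BMF, BBC3, PMAIP1, BIK, BAX and BAK1, taken by gene identifier from the 58243 gene IDs of the count tables, and all 10 were present. Cells were left untreated (CTRL), or received 1 µM imatinib (IM), an inhibitor of BCR-ABL1, 5 µM JTE-607 (JTE), which targets the endonuclease of the pre-mRNA cleavage machinery, or 110 mM KCl, a hyperosmotic shock. Poly(A) mRNA was sequenced from CTRL, IM 1h, IM 6h, IM 18h, JTE 1h, JTE 6h, JTE 18h, KCl 1h and KCl 3h (27 libraries), and ribosome-depleted nuclear RNA from CTRL, IM 1h, IM 18h, JTE 1h and KCl 1h (15 libraries). Every group had 3 biological replicates of the same cell line, and each fraction had 1 untreated group, which was compared with all treatments of that fraction.

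BCL2 family proteins set the permeability of the outer mitochondrial membrane. BAX and BAK1 are the effectors that form pores and release cytochrome c, the guardians MCL1, BCL-XL (the long product of BCL2L1) and BCL2 bind and restrain them, and the BH3-only proteins BIM (BCL2L11), BMF, PUMA (BBC3), NOXA (PMAIP1) and BIK bind the guardians, some of them also the effectors. In BCR-ABL1 cells BCL2L1 and MCL1 are known as transcripts maintained by signalling below the kinase, and BCL2L11 as a target of the FOXO3 transcription factor, which that signalling holds in check. The counts do not separate the isoforms of a gene, such as the long and short forms of BCL2L1, and they say nothing of the proteins.

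The depth was 16439848 to 62953314 counts per mRNA library and 16175394 to 25103205 per nuclear library. The erythroid and K562 genes GATA1, TAL1, KLF1, HBG2, HBE1 and TFRC were present in every library, GATA1 at 118 to 204 CPM (counts scaled to library size) in mRNA, whereas the lymphoid marker MS4A1 stayed at or below 0.142 CPM in mRNA and ALB of hepatocytes at or below 0.539 CPM. EPCAM, chosen as an epithelial marker, was at 75.0 to 108 CPM in mRNA of every group. Levels below are CPM scaled by TMM factors, and they are shares of the RNA in a library, so that fewer cells with a transcript and less transcript per cell cannot be told apart.

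The members lie on 8 chromosomes (hg38). BCL2L1 spans chr20:31664452-31723989 on the minus strand, MCL1 chr1:150574551-150579738 on the minus strand and BCL2 chr18:63123346-63320128 on the minus strand. BCL2L11 spans chr2:111119378-111168447 on the plus strand, BMF chr15:40087890-40108892 on the minus strand, BBC3 chr19:47220822-47232766 on the minus strand, PMAIP1 chr18:59899948-59904306 on the plus strand and BIK chr22:43110748-43129712 on the plus strand. BAX spans chr19:48954815-48961798 on the plus strand and BAK1 chr6:33572547-33580293 on the minus strand. Of the 3314 exon bases of BCL2L1, 1424 (43.0%) also belong to the antisense gene ABALON, and read pairs there were assigned to neither gene, so that the level of BCL2L1 is understated. BMF shares 461 of 5447 exon bases (8.46%) with its antisense gene BMF-AS1, and for the other members the shared part was at most 4.11% (BAK1). BCL2L11 begins 1156 bases beyond the annotated end of ACOXL on the same strand.

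RefSeq promoter windows (GRCh38.p14, 250 bases before to 50 bases after a start site, 300 bases in all) were at hand for 8 of the 10 members. They were searched on both strands for 5 short motifs. The STAT5 letters TTCNNNGAA were in 7.66% of all 35116 promoter windows of the table. The FOXO letters TGTTTAC were in 3.42% of them, the E-box CACGTG that MYC binds in 7.26%, the GATA letters AGATAA in 10.3% and the GC box GGGCGG that SP1 binds in 45%. Shown are the windows of BCL2L1, the member with the largest fall after 6 hours of imatinib, of BMF, the member with the largest rise, of BCL2L11, the single member window with the FOXO letters, and of BAX, which held 4 E-boxes. Each sequence runs 5′ to 3′ along the gene's own strand, and capitals mark a match to the STAT5, FOXO, E-box or GATA letters; none of these matches overlapped another motif.
BCL2L1, chr20:31723914-31724213, minus strand: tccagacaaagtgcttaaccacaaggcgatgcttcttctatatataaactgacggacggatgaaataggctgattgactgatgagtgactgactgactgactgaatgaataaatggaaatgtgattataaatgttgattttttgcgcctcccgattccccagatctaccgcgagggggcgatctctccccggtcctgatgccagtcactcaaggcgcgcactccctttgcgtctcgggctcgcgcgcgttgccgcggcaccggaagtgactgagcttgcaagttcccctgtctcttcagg
BMF, chr15:40108830-40109129, minus strand: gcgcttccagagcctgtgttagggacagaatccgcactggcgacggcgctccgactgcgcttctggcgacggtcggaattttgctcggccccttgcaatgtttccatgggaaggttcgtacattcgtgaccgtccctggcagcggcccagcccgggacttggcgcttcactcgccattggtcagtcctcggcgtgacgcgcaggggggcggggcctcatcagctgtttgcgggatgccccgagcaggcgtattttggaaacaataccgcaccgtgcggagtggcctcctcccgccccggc
BCL2L11, chr2:111120664-111120963, plus strand: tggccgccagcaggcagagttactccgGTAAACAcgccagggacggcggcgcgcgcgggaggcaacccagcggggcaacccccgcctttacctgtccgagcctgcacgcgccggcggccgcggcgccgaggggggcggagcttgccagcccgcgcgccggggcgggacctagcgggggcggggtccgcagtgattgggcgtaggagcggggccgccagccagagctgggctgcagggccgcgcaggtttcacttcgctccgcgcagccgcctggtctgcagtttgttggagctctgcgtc
BAX, chr19:48954625-48954924, plus strand: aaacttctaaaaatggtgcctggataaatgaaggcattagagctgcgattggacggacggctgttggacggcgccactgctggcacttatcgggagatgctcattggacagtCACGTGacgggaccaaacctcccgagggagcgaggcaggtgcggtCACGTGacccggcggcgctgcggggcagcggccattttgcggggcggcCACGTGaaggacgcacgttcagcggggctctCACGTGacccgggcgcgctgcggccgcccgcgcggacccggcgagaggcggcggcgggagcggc
The capitals in BCL2L11 are the FOXO letters on the opposite strand, starting 223 bases before the start site. The E-boxes of BAX start 138, 93, 45 and 14 bases before it. The windows of BCL2L1 and BMF held no match to the STAT5, FOXO, E-box or GATA letters, which describes these 300 bases and no other sequence near the genes. BBC3 had 1 E-box, and the GC box was found in BCL2L11 (3 matches), PMAIP1 (4 matches), BAX, BAK1 and BMF (2 matches each). BCL2L1 and BMF each had a second window, further into the gene, in which the 1 match was a GC box in that of BCL2L1.

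Levels between genes were compared per kilobase of exon (FPKM). In untreated cells the guardians MCL1 and BCL2L1 led the order in mRNA, with 88.9 ± 12.7 FPKM (SD, n = 3) for MCL1 and 30.1 ± 3.89 FPKM for BCL2L1. The effectors followed, BAX at 13.2 ± 0.507 FPKM and BAK1 at 8.69 ± 1.39 FPKM. PMAIP1 (5.97 ± 4.06 FPKM), BCL2L11 (5.57 ± 1.86 FPKM) and BBC3 (2.882 ± 2.205 FPKM) came next, and the libraries of BAK1, PMAIP1, BCL2L11 and BBC3 overlapped each with its neighbour in this order. BMF and BCL2, both at 0.33 FPKM, could not be ordered, and BIK was lowest at 0.172 ± 0.0608 FPKM. The order was the same in nuclear RNA for the first 4 members, from 76.9 ± 19.5 FPKM for MCL1 to 11.9 ± 0.262 FPKM for BAK1, with BIK at 0.606 ± 0.109 FPKM above BCL2 and BMF. Counting only the exon bases that no other gene shares would place BCL2L1 at 52.7 FPKM in mRNA, still between MCL1 and BAX. The plot of member levels in all libraries shows each gene on its own axis.

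**Figure D1:**
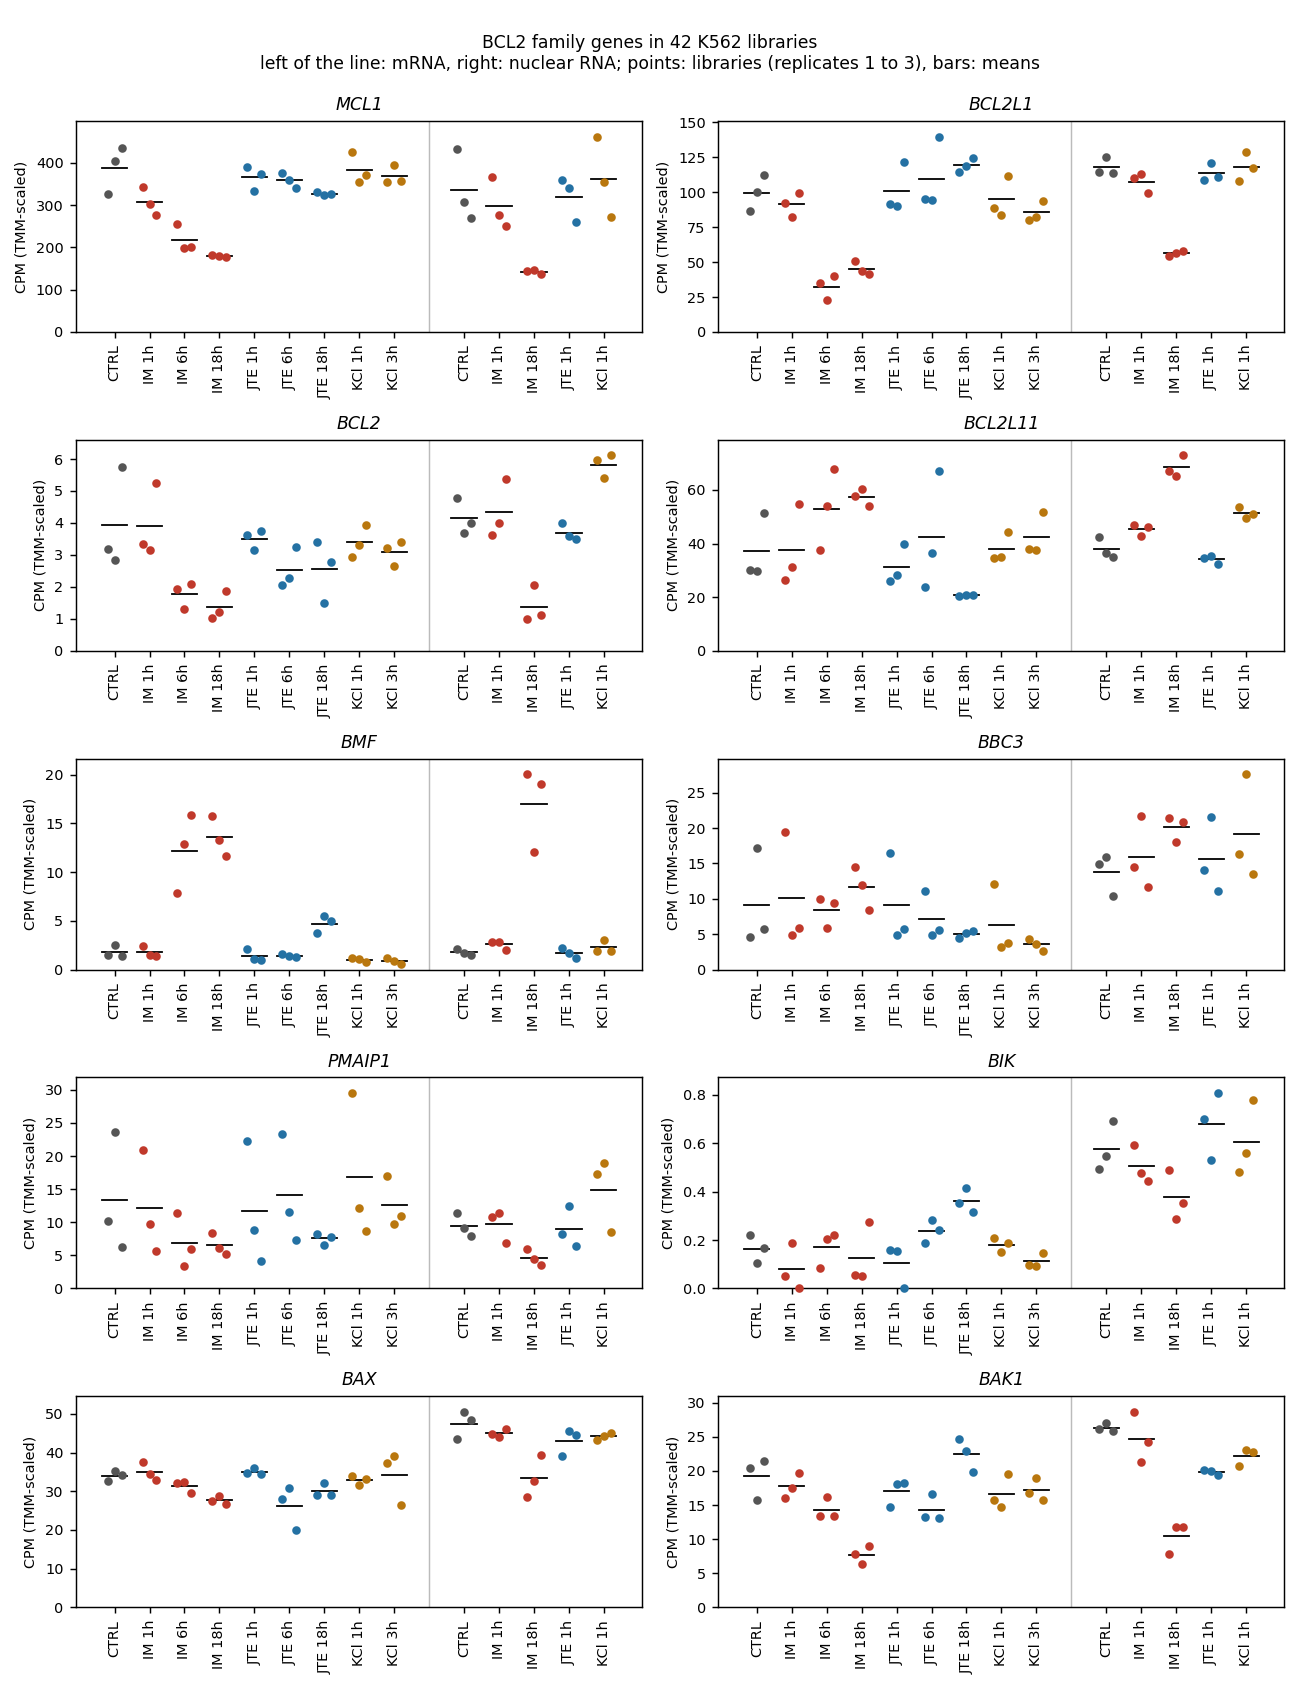
TMM-scaled CPM (vertical axis, linear from 0) of the 10 members in each of the 42 libraries, grouped by treatment along the horizontal axis, with mRNA left and nuclear RNA right of the grey line; points are replicates 1 to 3 from left to right and bars their means. Within each fraction MCL1, BCL2L1, BCL2 and BAK1 lie lowest after imatinib for 18 hours or, for BCL2L1, 6 hours, BMF lies highest there, and BBC3 and PMAIP1 spread widely between replicates of single mRNA groups.

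Each treatment was tested against CTRL of its fraction with edgeR, and a call needed both an adjusted p below 0.05 and a rise or fall of more than 0.6 on the log2 scale. BIK was too low to be tested in mRNA, so 9 members were tested there and 10 in nuclear RNA. In mRNA, imatinib moved 0 members at 1 hour (against 0.0166% of all tested genes called), 4 at 6 hours (9.94% of all genes) and 5 at 18 hours (30.5%). JTE-607 moved 0 members at 1 hour (0.851%), 0 at 6 hours (13.2%) and 1 at 18 hours (5.39%). KCl moved 0 members at 1 hour (5.45%) and 1 at 3 hours (11.9%). In nuclear RNA the counts were 0 for IM 1h (0.0456%), 7 for IM 18h (32.6%), 0 for JTE 1h (8.52%) and 0 for KCl 1h (23.8%). By direction, IM 6h gave 1 rise (5.82% of all genes rose) and 3 falls (4.12% fell), IM 18h 1 rise (17.2%) and 4 falls (13.2%), and nuclear IM 18h 2 rises (17.2%) and 5 falls (15.4%).

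Among the members called after imatinib in mRNA, all 3 guardians fell, BMF rose and, at 18 hours, BAK1 fell. Nuclear IM 18h added BCL2L11, which rose, and PMAIP1, which fell. For the comparisons with 0 calls, the members at an unadjusted p under 0.05 were MCL1 in IM 1h, none in JTE 1h, BAK1, BCL2 and BAX in JTE 6h and BMF in KCl 1h, all in mRNA. In nuclear RNA they were BCL2L11 in IM 1h, BAK1 in JTE 1h, and BCL2L11 and BCL2 in KCl 1h. DESeq2 also called 0 members in each of these comparisons.

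**Figure D2:**
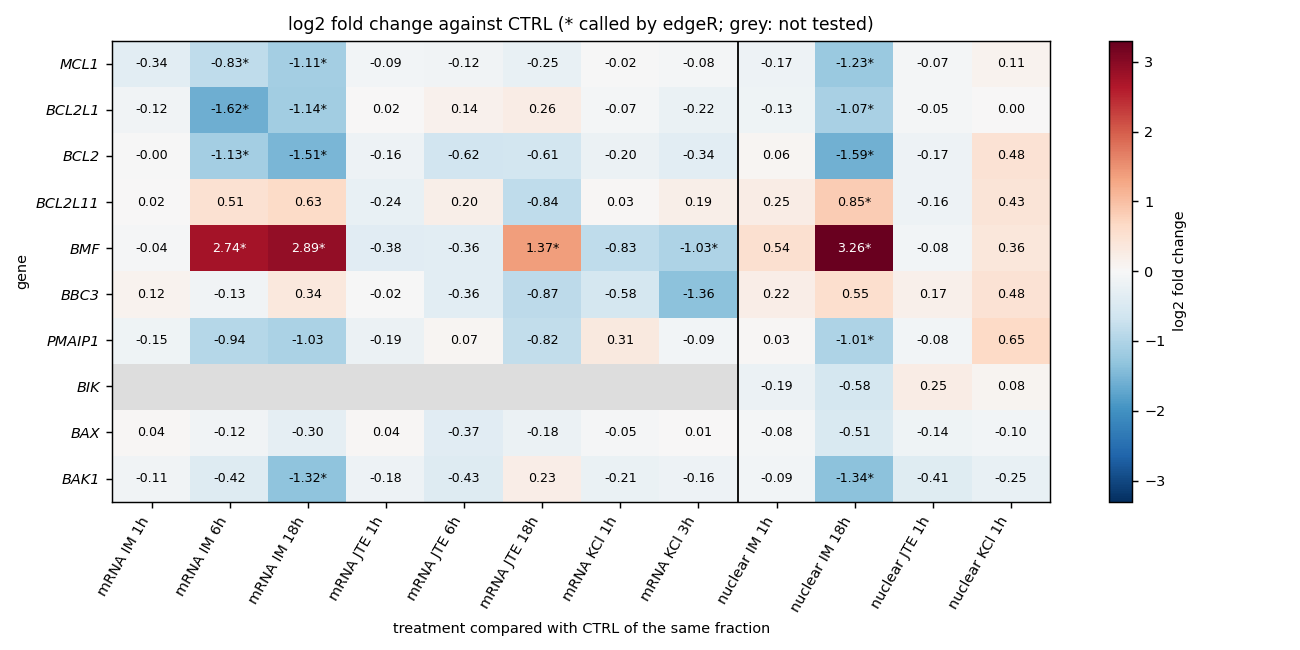
log2 fold change against CTRL (colour and printed value) for the 10 members (rows) in the 8 mRNA and 4 nuclear comparisons (columns); an asterisk marks a call by edgeR and grey a gene not tested. The calls sit in the imatinib columns at 6 and 18 hours except for BMF, which is also marked in JTE 18h (1.37) and KCl 3h (-1.03).

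MCL1, a guardian with a short-lived transcript and protein, had 327, 404 and 434 CPM in the CTRL mRNA libraries. It had 342, 303 and 278 CPM in IM 1h, 254, 198 and 201 CPM in IM 6h and 183, 180 and 177 CPM in IM 18h. The IM 1h libraries overlapped CTRL, whereas all IM 6h and IM 18h libraries lay below it. Of all genes in mRNA, 32.4% had no overlap with CTRL in IM 6h, 55.5% in IM 18h and 31.4% in JTE 18h. In nuclear RNA this share was 53.6% in IM 18h and 37.5% in KCl 1h. The log2 fold change was -0.34 ± 0.11 (SE) at 1 hour, which was not called (adjusted p = 1), -0.83 ± 0.11 at 6 hours (adjusted p = 1.6e-05) and -1.11 ± 0.11 at 18 hours (adjusted p = 5.3e-08), the last a 2.16-fold lower level. In nuclear RNA MCL1 had 432, 307 and 269 CPM in CTRL and 144, 147 and 137 CPM in IM 18h, without overlap. This fall was -1.23 ± 0.21 on the log2 scale (adjusted p = 0.00028). JTE-607 left MCL1 at 331, 324 and 325 CPM after 18 hours, which overlapped the lowest CTRL library.

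BCL2L1 had 86.6, 100 and 112 CPM in CTRL mRNA. It fell to 34.96, 22.65 and 39.93 CPM in IM 6h and stood at 50.7, 43.3 and 41.7 CPM in IM 18h. All 6 of these libraries lay below CTRL, and those of IM 6h lay below those of IM 18h. Against CTRL the log2 fold change was -1.62 ± 0.18 at 6 hours (adjusted p = 3.2e-06), or 3.07-fold lower, and -1.14 ± 0.18 at 18 hours (adjusted p = 1.9e-05). The difference between 18 and 6 hours, 0.48 ± 0.18, did not pass the test (adjusted p = 0.098), but it reached 0.64 (adjusted p = 0.025) when IM 6h replicate 3 was left out. Nuclear RNA gave 115, 125 and 113 CPM in CTRL and 54.0, 56.5 and 58.0 CPM in IM 18h, a log2 fold change of -1.07 ± 0.09 (adjusted p = 3.0e-08). In JTE 18h BCL2L1 was at 115, 119 and 124 CPM, all above the highest CTRL library, but the difference of 0.26 ± 0.17 was not called (adjusted p = 0.413). The antisense gene ABALON held 3 to 51 counts per mRNA library and 35 to 115 per nuclear library, and its part in these differences was not tested.

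BCL2, the founding member and a guardian, was scarce in K562 mRNA, at 3.20, 2.83 and 5.74 CPM in CTRL. It had 1.94, 1.32 and 2.09 CPM in IM 6h and 1.03, 1.21 and 1.87 CPM in IM 18h. No IM 6h or IM 18h library reached the lowest CTRL library. The log2 fold change was -1.13 ± 0.31 at 6 hours (adjusted p = 0.013) and -1.51 ± 0.32 at 18 hours (adjusted p = 0.00049). The 6 hour call was lost without CTRL replicate 3 (-0.79, adjusted p = 0.107) and without IM 6h replicate 2 (-0.99, adjusted p = 0.055). In nuclear RNA it went from 4.78, 3.69 and 4.01 CPM in CTRL to 0.980, 2.06 and 1.11 CPM in IM 18h, a log2 fold change of -1.59 ± 0.24 (adjusted p = 1.8e-05). JTE 6h (-0.62 ± 0.30, adjusted p = 0.166) and JTE 18h (-0.61 ± 0.30, adjusted p = 0.228) gave values below CTRL that were not called.

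BMF, a BH3-only protein that binds the guardians, showed the largest fold change of the members against CTRL in IM 6h and IM 18h mRNA and in nuclear IM 18h. In mRNA it had 1.49, 2.51 and 1.45 CPM in CTRL, 7.89, 12.9 and 15.8 CPM in IM 6h and 15.8, 13.3 and 11.6 CPM in IM 18h. The groups were far apart, the lowest imatinib library at these times being above the highest CTRL library. The rise was 2.74 ± 0.31 at 6 hours (adjusted p = 3.2e-06) and 2.89 ± 0.31 at 18 hours (adjusted p = 1.4e-07) on the log2 scale, which is 6.67-fold and 7.43-fold. At 1 hour the libraries had 2.406, 1.4997 and 1.424 CPM, with no call (-0.04 ± 0.33, adjusted p = 1). Nuclear BMF went from 2.15, 1.69 and 1.49 CPM in CTRL to 20.05, 12.04 and 19.01 CPM in IM 18h, a rise of 3.26 ± 0.25 (adjusted p = 5.4e-09), or 9.56-fold.

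BMF was also the single member called in JTE 18h and in KCl 3h, in opposite directions. JTE 18h libraries had 3.75, 5.48 and 4.97 CPM, all above CTRL and below every imatinib library of 6 or 18 hours, and the rise over CTRL was 1.37 ± 0.31 (adjusted p = 0.0059). JTE 1h (2.15, 1.09 and 0.961 CPM) and JTE 6h (1.61, 1.37 and 1.29 CPM) overlapped CTRL. KCl 3h libraries had 1.17, 0.898 and 0.594 CPM, a fall of 1.03 ± 0.35 on the log2 scale (adjusted p = 0.047) that rested on 12 to 24 counts per library. That call was lost when CTRL replicate 1 (adjusted p = 0.051), CTRL replicate 2 (0.256), KCl 3h replicate 2 (0.104) or KCl 3h replicate 3 (0.192) was left out, all with a lower level in KCl 3h, and when only these groups were fitted (0.103).

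BCL2L11 encodes BIM, a BH3-only protein that binds all the guardians. Its mRNA libraries had 30.3, 29.6 and 51.4 CPM in CTRL, 37.7, 53.8 and 67.7 CPM in IM 6h and 57.8, 60.4 and 53.8 CPM in IM 18h. All IM 18h libraries lay above CTRL, though one by little, and the IM 6h libraries overlapped it. The log2 fold change was 0.51 ± 0.31 at 6 hours (adjusted p = 0.273) and 0.63 ± 0.31 at 18 hours (adjusted p = 0.101), and neither was called. Without CTRL replicate 3, the library with 51.4 CPM, the 18 hour value was 0.90 (adjusted p = 0.035). In nuclear RNA the same treatment gave a call, from 42.5, 36.5 and 35.1 CPM in CTRL to 67.1, 65.3 and 72.8 CPM in IM 18h, a rise of 0.85 ± 0.10 (adjusted p = 7.6e-07) with tighter replicates.

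In JTE-607 the BCL2L11 values ran the other way at the last time. JTE 6h libraries had 23.8, 36.4 and 67.2 CPM and JTE 18h libraries 20.4, 20.9 and 20.8 CPM, so that all 3 JTE 18h libraries lay below every CTRL library. Against CTRL the difference was -0.84 ± 0.31 and was not called (adjusted p = 0.097). In nuclear RNA after KCl 1h BCL2L11 had 53.6, 49.5 and 50.8 CPM, above all CTRL libraries, and the difference of 0.43 ± 0.10 passed the p threshold (adjusted p = 0.0017) but not the fold threshold.

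BBC3 encodes PUMA and PMAIP1 encodes NOXA, BH3-only proteins known to be induced by stress. BBC3 was at 4.57, 17.2 and 5.69 CPM in CTRL mRNA, at 19.5, 4.87 and 5.83 CPM in IM 1h, at 16.5, 4.92 and 5.76 CPM in JTE 1h and at 12.2, 3.25 and 3.70 CPM in KCl 1h. One library of each of these groups stood at about 3 times the next. It was labelled replicate 2 in CTRL and replicate 1 in the treated groups. The study's read statistics give that CTRL library the number 1. PMAIP1 had 10.1, 23.6 and 6.30 CPM in CTRL, 20.9, 9.75 and 5.60 CPM in IM 1h and 22.3, 8.81 and 4.11 CPM in JTE 1h, with the same libraries high. Neither gene was called in any mRNA comparison; the standard errors of their log2 fold changes ran from 0.58 to 0.65 in the comparisons with CTRL. Without the filter on low counts, edgeR called PMAIP1 against CTRL in IM 6h (-0.98, adjusted p = 3.0e-05), IM 18h (-1.12, adjusted p = 3.3e-07) and JTE 18h (-0.83, adjusted p = 0.0014). It also called BBC3 in JTE 18h (-0.88, adjusted p = 0.0028) and KCl 3h (-1.37, adjusted p = 4.9e-08), so that these genes' calls depended on that filter. With the filter PMAIP1 was at -0.94 ± 0.64 in IM 6h and -1.03 ± 0.64 in IM 18h, close to the values without it. DESeq2, run with the filter, called neither gene in these comparisons. The libraries overlapped CTRL in each of them except for BBC3 in KCl 3h, where 30.0% of all genes had no overlap. The largest mRNA difference of these genes was that of BBC3 in KCl 3h, with 4.36, 3.68 and 2.67 CPM and -1.36 ± 0.62 (adjusted p = 0.158).

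**Figure D3:**
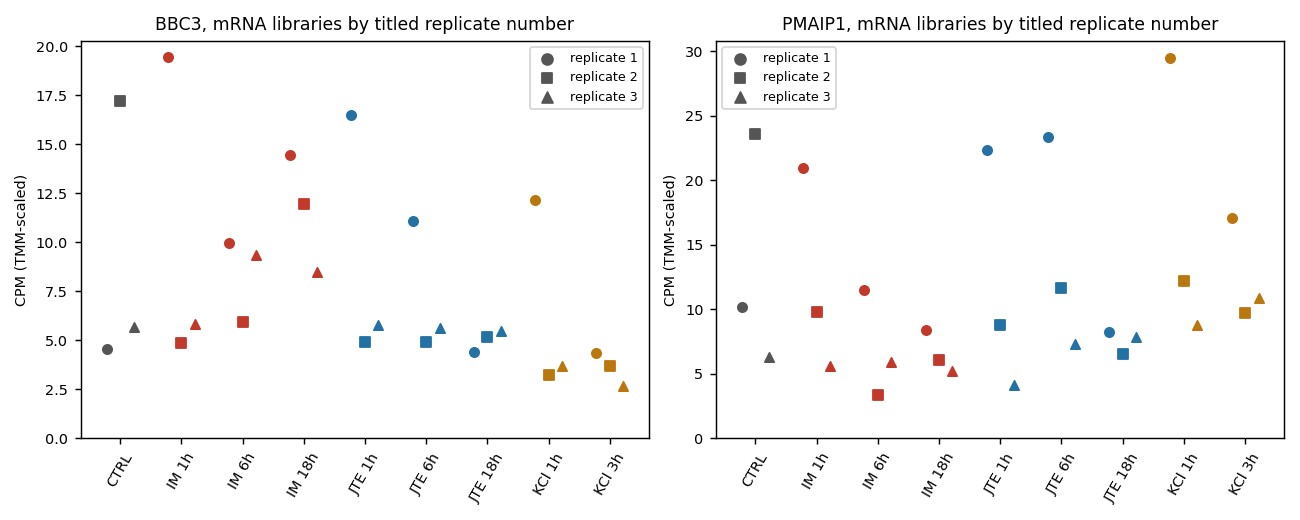
TMM-scaled CPM (vertical axis, linear from 0) of BBC3 and PMAIP1 in the 27 mRNA libraries by group (horizontal axis), with the replicate number of the labels as circle (1), square (2) or triangle (3). In IM 1h, JTE 1h, JTE 6h and KCl 1h the circle is highest for both genes, whereas in CTRL the square is.

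In nuclear RNA PMAIP1 was steadier, with 11.4, 9.11 and 7.97 CPM in CTRL and 5.96, 4.49 and 3.51 CPM in IM 18h. The IM 18h libraries all lay below CTRL, and the fall of 1.01 ± 0.33 was called (adjusted p = 0.021). The call was lost without either of CTRL replicates 1 (adjusted p = 0.096) and 2 (0.055) and of IM 18h replicates 2 (0.064) and 3 (0.084). After KCl 1h PMAIP1 stood at 17.3, 18.9 and 8.59 CPM, a difference of 0.65 ± 0.31 that was not called (adjusted p = 0.152). In a fit blocked on replicate number, by which the nuclear libraries are paired, it was 0.61 ± 0.15 and passed (adjusted p = 0.0013), as it did without KCl 1h replicate 3 (0.93, adjusted p = 0.015). Nuclear BBC3 had 14.9, 15.9 and 10.4 CPM in CTRL and 21.4, 18.1 and 20.8 CPM in IM 18h. The groups did not overlap, as was so for 53.6% of all genes, but the difference of 0.55 ± 0.31 was not called (adjusted p = 0.169).

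BIK, a BH3-only protein of the endoplasmic reticulum, was near the limit of detection. It had 0 to 9 counts in the mRNA libraries, with 0 counts in IM 1h replicate 3, which allows up to 0.138 CPM, and in JTE 1h replicate 3, which allows up to 0.16 CPM. These limits cover counting error only. JTE 18h libraries were the highest in mRNA, at 0.355, 0.417 and 0.314 CPM against 0.220, 0.105 and 0.167 CPM in CTRL, each on 2 to 7 counts. In nuclear RNA BIK had 6 to 20 counts per library and was not called in any comparison, the largest difference being -0.58 ± 0.36 in IM 18h (adjusted p = 0.2).

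Of the effectors, BAK1 was called after imatinib and BAX was not, and the difference between the genes' responses was not tested. BAK1 had 20.5, 15.7 and 21.5 CPM in CTRL mRNA, 13.4, 16.2 and 13.4 CPM in IM 6h and 7.76, 6.37 and 9.02 CPM in IM 18h. The IM 18h libraries lay below all others in the mRNA set. The log2 fold change was -0.42 ± 0.16 at 6 hours (adjusted p = 0.066), which was not called, and -1.32 ± 0.16 at 18 hours (adjusted p = 9.4e-07), or 2.49-fold lower. Nuclear BAK1 went from 26.19, 27.01 and 25.89 CPM to 7.80, 11.8 and 11.8 CPM in IM 18h, a log2 fold change of -1.34 ± 0.14 (adjusted p = 2.6e-07). BAX had 32.6, 35.2 and 34.3 CPM in CTRL and 27.6, 28.7 and 26.7 CPM in IM 18h mRNA. Its groups did not overlap, as was so for 55.5% of all genes, yet the difference was small, -0.30 ± 0.13 (adjusted p = 0.07). In nuclear RNA BAX went from 43.4, 50.5 and 48.4 CPM to 28.4, 32.6 and 39.3 CPM, and -0.51 ± 0.11 passed the p threshold (adjusted p = 0.00095) but not the fold threshold. Without IM 18h replicate 3, whose 39.3 CPM was nearest to CTRL, it was -0.64 (adjusted p = 0.00015) and called.

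The later times were compared directly, IM 18h with IM 6h, JTE 18h with JTE 6h and KCl 3h with KCl 1h, and 6 hours was not compared with 1 hour. Between IM 6h and IM 18h 1 of 9 members was called (4.41% of all genes), BAK1, which fell further by 0.89 ± 0.16 (adjusted p = 0.002). Between JTE 6h and JTE 18h 3 members were called (13.4% of all genes). BMF rose by 1.73 ± 0.32 (adjusted p = 0.00042), BAK1 rose by 0.65 ± 0.16 (adjusted p = 0.0041) and BCL2L11 fell by 1.04 ± 0.31 (adjusted p = 0.02) on the log2 scale. BAK1 had 13.3, 16.6 and 13.1 CPM in JTE 6h and 24.6, 23.0 and 19.8 CPM in JTE 18h. JTE 6h replicate 3 carried the highest BCL2L11 and BCL2L1 and the lowest BAX of its group, and without it the BCL2L11 difference was -0.54 (adjusted p = 0.217) and that of BAK1 0.59, under the fold threshold. The BCL2L11 call was also lost without JTE 18h replicate 1 (adjusted p = 0.065), 2 (0.054) or 3 (0.062). From KCl 1h to KCl 3h 0 members were called (3.29% of all genes), 0 had an unadjusted p under 0.05, and DESeq2 called 0.

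**Figure D4:**
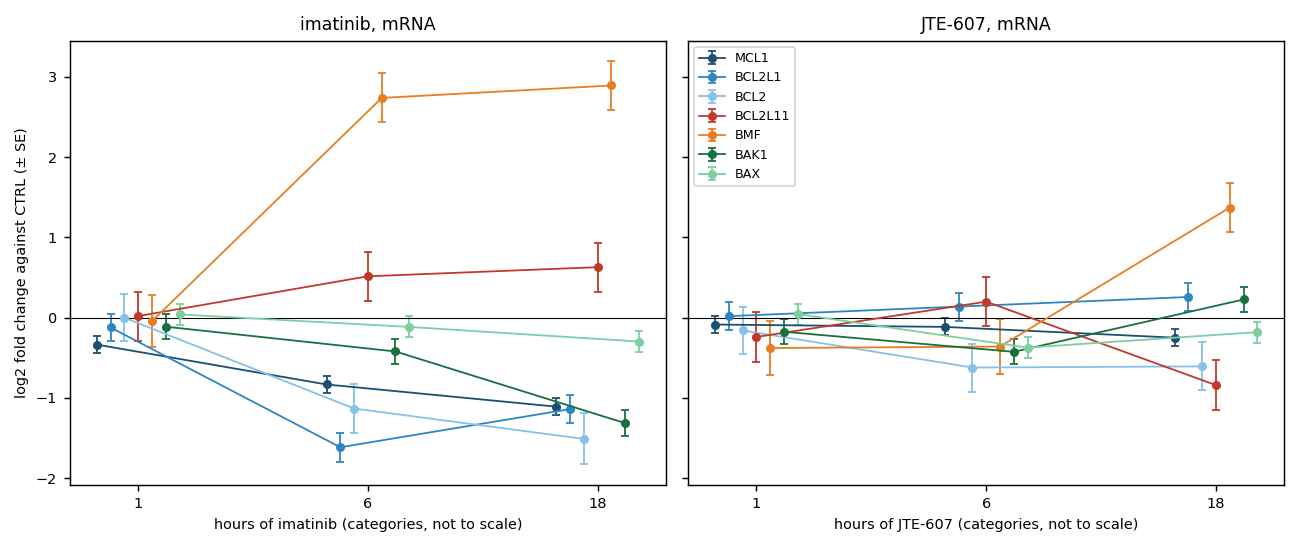
log2 fold change against CTRL in mRNA (vertical axis, ± SE of the edgeR fit over 3 libraries a group) for 7 members after 1, 6 and 18 hours (categories on the horizontal axis, not to scale) of imatinib (left) and JTE-607 (right). Under imatinib BMF reaches 2.74 and 2.89 while MCL1, BCL2L1 and BCL2 lie at -0.83 or below from 6 hours on, and under JTE-607 the members shown lie between -0.84 and 1.37.

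Imatinib and JTE-607 were then set against each other at equal times, which uses no CTRL library for the difference. At 6 hours 3 of 9 members differed (23.8% of all genes): BMF was 3.10 ± 0.31 higher (adjusted p = 1.3e-07), BCL2L1 lower with a log2 difference of -1.75 ± 0.18 (adjusted p = 1.5e-07), and MCL1 differed by -0.72 ± 0.11 (adjusted p = 1.7e-05). With scaling by library totals alone the MCL1 difference was -0.58, under the fold threshold. When JTE 6h replicate 3 was left out, BCL2L11 was called as well (0.81, adjusted p = 0.045). At 18 hours 6 members differed (30.3% of all genes). BCL2L11 was 1.47 ± 0.31 higher in imatinib (adjusted p = 0.00066) and BMF 1.52 ± 0.28 higher (adjusted p = 0.00014). MCL1 (-0.86 ± 0.11), BCL2L1 (-1.40 ± 0.18), BAK1 (-1.54 ± 0.16) and BCL2 (-0.90 ± 0.32) were lower, with adjusted p of 1.3e-06, 1.6e-06, 1.2e-07 and 0.026. The BCL2 call was lost without IM 18h replicate 1 (adjusted p = 0.118) or 2 (0.075) and without JTE 18h replicate 1 (0.136) or 3 (0.062). The compounds act on unrelated targets and were used at different doses, so this is a comparison of these treatments as given.

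Ratios between members within a library, per length of exon, do not depend on the scaling between libraries. They are given as log2 values without a test. BCL2L11 to BCL2L1 was -2.77, -2.52 and -2.13 at its lowest, middle and highest CTRL mRNA library, and its mean was -2.47 ± 0.32 (SD, n = 3). It was -0.30 ± 0.57 in IM 6h and -0.66 ± 0.15 in IM 18h, every such library being above every CTRL library, and -3.53 ± 0.05 in JTE 18h, below all of CTRL. Nuclear RNA showed -2.64 ± 0.18 in CTRL and -0.72 ± 0.06 in IM 18h. Thus the BCL2L11 level went from 0.18 of the BCL2L1 level in CTRL to 0.633 of it in IM 18h mRNA. MCL1 to BCL2L1 stood at 1.56 ± 0.05 in CTRL, 2.38 ± 0.40 in IM 6h, 1.60 ± 0.13 in IM 18h and 1.06 ± 0.07 in JTE 18h, so that the higher ratio of IM 6h was no longer seen at 18 hours. BAX to BAK1 was 0.61 ± 0.28 in CTRL, 1.63 ± 0.30 in IM 18h and 0.20 ± 0.16 in JTE 18h, and the 3 groups did not overlap. Leaving out the exon bases of BCL2L1 shared with ABALON lowers each ratio to BCL2L1 by 0.81 and leaves the differences between groups as they are.

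**Figure D5:**
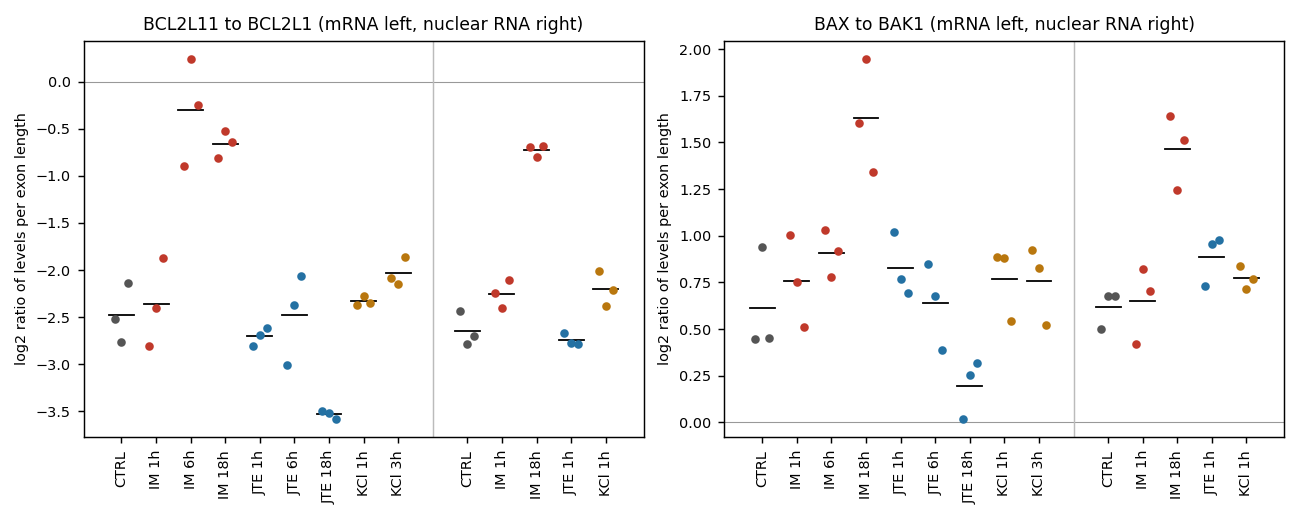
log2 ratio of levels per exon length (vertical axis) of BCL2L11 to BCL2L1 (left) and of BAX to BAK1 (right) in each of the 42 libraries by group (horizontal axis), with mRNA left and nuclear RNA right of the grey line, points for libraries and bars for means. The points of BCL2L11 to BCL2L1 in IM 6h (mRNA) and in IM 18h (both fractions) lie above all other groups and those of JTE 18h lie lowest, at -3.53 ± 0.05.

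Whether the nuclear and the mRNA response differed was asked with an interaction term over 12 libraries (both fractions, treated and CTRL). For imatinib at 18 hours 0 members were called (0.0901% of all genes), for JTE-607 at 1 hour 0 (0.0605%) and for KCl at 1 hour 0 (0.668%) by edgeR, and DESeq2 also called 0 in each. At an unadjusted p under 0.05 there were 0, 0 and 1 members, the last being BMF in KCl 1h (nuclear minus mRNA response 1.09 ± 0.42, adjusted p = 0.373). For the imatinib response the differences were small beside the responses themselves, such as -0.07 ± 0.21 for MCL1, 0.13 ± 0.16 for BCL2L1, 0.02 ± 0.24 for BAK1 and 0.42 ± 0.35 for BMF. The difference for BCL2L11, 0.27 ± 0.23, was not past the test either (adjusted p = 1), although the nuclear response was called and the mRNA response was not.

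Other genes of the mitochondrial pathway were read from lists. Of 13 further BCL2 family genes 9 were tested in mRNA, and after IM 18h BNIP3L, a mitophagy receptor, rose (0.95 ± 0.25, adjusted p = 0.0036) while BID and BOK fell, leaving 6 uncalled (30.5% of all genes were called, 17.2% higher and 13.2% lower). The median log2 fold change was 0.01 beside 0.04 over all 18095 genes. In nuclear IM 18h BNIP3L rose (1.19 ± 0.22, adjusted p = 0.00043), BID, the BH3-only protein cleaved by caspase 8, fell (-0.91 ± 0.10, adjusted p = 2.7e-07) and BCL2L12 fell, of 11 tested (32.6% of all genes called). Of 19 genes of the apoptosome, caspases and their inhibitors, 1 rose and 3 fell in IM 18h mRNA, a smaller share than the 30.5% of all genes called. Cytochrome c (CYCS) fell from 618 ± 54.5 to 233 ± 33.2 CPM (-1.41 ± 0.17, adjusted p = 6.1e-07), VDAC1 and VDAC2 of the outer membrane fell, and BIRC3, an inhibitor of apoptosis, rose from 0.521 ± 0.230 to 1.64 ± 0.368 CPM (1.64 ± 0.37, adjusted p = 0.00095). The call of BOK (-0.98, adjusted p = 0.034) was lost without any 1 library other than CTRL replicate 1, with adjusted p up to 0.141.

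Of 11 genes of the death receptor pathway 1 rose and 4 fell in IM 18h mRNA (30.5% of all genes called), with a median of -0.26. The TRAIL receptor genes TNFRSF10A and TNFRSF10B fell, TNFRSF10B from 30.2 ± 8.09 to 7.499 ± 2.948 CPM (-2.01 ± 0.32, adjusted p = 3.6e-05) and TNFRSF10A already at 6 hours from 45.3 ± 2.64 to 18.3 ± 5.79 CPM (-1.31 ± 0.20, adjusted p = 7.7e-05). Their ligand gene TNFSF10 rose from 0.365 ± 0.0938 to 1.47 ± 0.561 CPM (2.00 ± 0.47, adjusted p = 0.0013), and CFLAR and TNFRSF1A fell. The same 5 genes were called in nuclear IM 18h. Of 14 regulators of the family, 3 rose and 2 fell in IM 18h mRNA (17.2% of all genes rose and 13.2% fell). MYC fell from 292 ± 70.7 to 97.7 ± 14.2 CPM (-1.58 ± 0.29, adjusted p = 0.00014). STAT5A, which carries the BCR-ABL1 signal to target genes, fell from 490.0 ± 44.7 to 264 ± 34.5 CPM. FOXO3 rose from 37.7 ± 9.80 to 102 ± 18.6 CPM (1.43 ± 0.21, adjusted p = 7.6e-06). TP73 rose too.

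The same lists were read in JTE-607 and KCl. In JTE 6h mRNA BCL2L2, the gene of the guardian BCL-W, fell from 31.9 ± 1.90 to 13.5 ± 2.31 CPM (-1.24 ± 0.14, adjusted p = 8.7e-07), and the mitochondrial protease HTRA2 fell (-0.98 ± 0.17, adjusted p = 0.00015), 1 call of 9 and 1 of 19 (13.2% of all genes called). BCL2L2 shares exons with an annotated readthrough gene, so its level is uncertain. In JTE 18h 2 of 14 regulators, 1 of 9 further family genes and 1 of 19 apoptosome genes were called (5.39% of all genes). STAT5A fell (-0.85 ± 0.15, adjusted p = 0.00071), and BAD (0.74), APAF1 (0.76) and DDIT3 (-1.51) were called with adjusted p of 0.021, 0.028 and 0.044. Those 3 calls depended on single libraries. BAD was lost on leaving out CTRL 1, CTRL 2, JTE 18h 1 or JTE 18h 3 (adjusted p up to 0.089), APAF1 on leaving out CTRL 1, CTRL 3, JTE 18h 1 or JTE 18h 3 (up to 0.148), and DDIT3 on leaving out any library but CTRL 1 (up to 0.277). In nuclear RNA after KCl 1h, 3 of 11 further family genes rose (15.3% of all genes rose). BCL2L14 went from 0.623 ± 0.185 to 3.31 ± 1.25 CPM (2.41 ± 0.33, adjusted p = 8.0e-06), BCL2L15 from 0.501 ± 0.187 to 1.72 ± 0.165 CPM, and HRK, a BH3-only gene of neurons, from 0.0964 ± 0.0991 to 1.23 ± 0.418 CPM (adjusted p = 5.1e-05). BCL2L14 also rose in nuclear JTE 1h (1.60 ± 0.34, adjusted p = 0.0035), and the stress regulator DDIT3 rose in nuclear KCl 1h (0.82 ± 0.17, adjusted p = 0.00099). TP73 rose in nuclear JTE 1h (0.73 ± 0.16, adjusted p = 0.0042). DDIT3 and TP73 were each the 1 call among 14 regulators in their nuclear comparison (23.8% and 8.52% of all genes called). The calls of TRADD in JTE 6h (-0.63, adjusted p = 0.023) and DIABLO in nuclear KCl 1h (-0.60, adjusted p = 0.004) also depended on single libraries. TRADD was lost on leaving out CTRL 1, CTRL 2, JTE 6h 1 or JTE 6h 3 (adjusted p up to 0.098), and DIABLO on leaving out CTRL 1, CTRL 3, KCl 1h 1 or KCl 1h 2, where it fell under the fold threshold (-0.45 to -0.58). HRK and BCL2L14 were too low to be tested in mRNA, where their highest group means were 0.146 and 0.203 CPM. BCL2L15 was tested in mRNA and was not called in KCl 1h. Their nuclear rises were thus not matched by a call in mRNA. BCL2A1 and BCL2L10 were too low to be tested in either fraction.

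The genes whose log2 fold changes over the 12 comparisons with CTRL lay nearest to those of a called member were found among about 8468 genes with a mean of at least 10 CPM. The measure was the root mean square difference, and these comparisons share their CTRL libraries. Nearest to MCL1 were PGAM5 (0.115) and POGK (0.118), against a root mean square of 0.555 for MCL1 itself. BAK1 (root mean square 0.599) had ORAI1 (0.128) and CDR2L (0.14), BCL2L11 (0.456) had ARHGAP19 (0.177) and SLIT2 (0.179), and BCL2 (0.780) had NIP7 (0.204) and TSR1 (0.214). BCL2L1 (root mean square 0.660) had MGAT5 (0.204) and PER2 (0.213), and PMAIP1 (0.595) had CHD7 (0.222) and TXLNG (0.228). BMF, with the highest root mean square of these members, 1.60, had FAXDC2 (0.572) and TRANK1 (0.58).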

How the data were processed

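RNA-seq was performed on 27 mRNA and 15 nuclear RNA libraries of K562 cells, grouped by their titles. The authors deposited unnormalised counts of fragments for each gene, obtained by trimming and deduplicating reads, aligning them to hg38 with STAR and counting over exons with featureCounts. Unique alignments with introns of at most 10000 bases were kept, so fragments across longer introns (1 each in BCL2, BCL2L1, BMF and BIK, 2 in BCL2L11) are missing. Counting ignored strand, so antisense reads count for a gene, and fragments over exons of several genes count for none.

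The edgeR quasi-likelihood test (edgeR 4.0.16, R 4.3.3; robust, TMM, filterByExpr) was fitted to every library of a fraction together, with a term for each group. P-values were adjusted by Benjamini and Hochberg over all 18095 (mRNA) or 21929 (nuclear) genes. The SE of a log2 fold change was derived from the test, as its absolute value divided by the square root of the F statistic. Alternatives were DESeq2 1.42.0, other scaling, no low-count filter, no fold threshold, fits of only the compared groups, a replicate block and leaving out each library. Named were all members, up to 2 called genes of the largest fold change per list and comparison with CTRL, and the 2 nearest genes of each called member; further list genes were named, where few were called, after their values were seen, and 1 list gene is not reported here. The members and lists were chosen with earlier results of these data known.

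Correlations of deviations from the group means showed that the labelled replicate numbers pair the nuclear libraries with CTRL (0.235 to 0.891). In mRNA they pair JTE 18h with JTE 6h (0.112 to 0.322), IM 6h with JTE 6h (0.412 to 0.581) and KCl 3h with KCl 1h (0.584 to 0.671). They do not pair the other mRNA comparisons, and the study's read statistics give CTRL mRNA replicates 1 and 2 the opposite numbers. Replicates differed by more than sampling noise.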

Additional observations from a re-analysis of the deposited data

Results flagged for a closer look

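Differences between times of one treatment were called for 3 members, each tested directly between the times with edgeR. Of all genes, 4.41% were called between IM 6h and IM 18h and 13.4% between JTE 6h and JTE 18h. BAK1 was lower in IM 18h than in IM 6h by a log2 difference of -0.89 (adjusted p = 0.002). The 3 IM 18h libraries lay below the 3 IM 6h libraries, and 29.7% of all genes had no overlap between these groups. BAK1 was higher in JTE 18h than in JTE 6h by 0.65, BMF was higher by 1.73, and BCL2L11 was lower by a difference of -1.04. The JTE-607 calls of BAK1 and BCL2L11 were lost when JTE 6h replicate 3 was left out. That of BCL2L11 was also lost without any single JTE 18h library.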

How the results depend on the processing

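The counts of members called kept to within 1.5 times of their values in 258 of 275 alternatives. A count of 0 in both fits was taken as kept, so comparisons with 0 calls add to this number. A change from 4 to 3, as in IM 6h, was also taken as kept. No gene called in the main fit or in the alternative reversed its direction, and genes called in neither were not checked for this. Of 224 alternatives for the ratios, 28 moved by more than the SD of their group or changed sign. For JTE 18h against CTRL the count was 4 with no low-count filter, 2 with only these groups and 2 with the replicate block, against 1. For JTE 6h the replicate block gave 1 (BCL2). For KCl 3h it was 2 with no filter and 0 with only these groups, and for KCl 3h against KCl 1h it was 1 with no filter. For nuclear KCl 1h it was 1 without the fold threshold, 1 with no filter and 1 with the replicate block. Leaving out 1 library gave 1 to 2 members for IM 18h against IM 6h, 1 to 3 for JTE 18h against JTE 6h, 0 to 1 for KCl 3h and 0 to 1 for nuclear KCl 1h. The cause was not tested. The block changed 1 call where the numbers pair the libraries (PMAIP1 in nuclear KCl 1h). In mRNA the labelled numbers do not pair with CTRL. CTRL replicates 1 and 2 went with their own numbers at correlations of -0.368 to 0.078 and with each other's at 0.104 to 0.869. The study's read statistics number these libraries the other way round, with 19031221 counts for CTRL replicate 1 and 18333127 for CTRL replicate 2. The labels were kept here, so the block in mRNA followed numbers that the correlations do not bear out for CTRL. With these numbers the block also called BCL2L11 in IM 18h (0.70, adjusted p = 0.0047) and JTE 18h (-0.79, adjusted p = 0.0092). Without the filter PMAIP1 was called in IM 6h (-0.98) and IM 18h (-1.12) mRNA and BBC3 in KCl 3h (-1.37). DESeq2, run with the filter, called neither gene there. Scaling by library totals alone took MCL1 in IM 6h against JTE 6h to -0.58. For genes of the 4 lists, 551 of 624 list counts stayed within 1.5 times by the same rule. Level per length without shared exon bases was added after seeing the data. Depth limits BIK, and BMF and BCL2 in CTRL mRNA rest on 26 to 103 counts.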
